A study of Homo sapiens with 12 samples.

Results

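NODAL, INHBA, TDGF1, LEFTY2 and CER1 encode a ligand, a ligand subunit, a co-receptor and a pair of secreted inhibitors of 1 signalling pathway, and they were followed over 3 days of cardiomyocyte differentiation. The genes were chosen by symbol, and 5 of the 6 symbols looked up were among the 17096 genes listed. The remaining one, LEFTY1, was not analysed here. All 5 genes passed the filter on low values, which kept 16295 genes with at least 1 FPKM (fragments scaled to transcript length and library size) in at least 2 libraries. RNA came from differentiating H7 cells, a line of human embryonic stem cells, labelled either E2A-/- or wild type. Each genotype was sampled on day 3, labelled cardiac mesoderm, and on days 7 and 15 of differentiation, with 2 libraries in each of the 6 groups. E2A is another name of TCF3, a basic helix-loop-helix transcription factor that binds E-box sequences. The sources used here do not give the position of the edit, the number of knockout clones or whether replicates were separate cultures. The p-values therefore measure the spread between these libraries, which may be technical.

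NODAL and activins are ligands of the TGF-beta family that bind activin receptors, and the receptors phosphorylate SMAD2 and SMAD3. NODAL needs a co-receptor of the CRIPTO family, and its signal acts with the transcription factor FOXH1. LEFTY proteins and Cerberus are secreted antagonists, and LEFTY and NODAL genes are known targets of the pathway themselves, so that it feeds back on its own level. In the gastrulating embryo the pathway induces primitive streak, mesoderm and endoderm.

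TCF3, the gene named in the genotype, was read first in every library. On day 3 it had 146 and 148 FPKM in the libraries labelled E2A-/-, against 179 and 149 FPKM in wild type. On day 7 the values were 180 and 172 FPKM in the libraries labelled E2A-/-, against 135 and 138 FPKM in wild type. On day 15 they were 170 and 108 FPKM in the libraries labelled E2A-/-, against 74.4 and 98.2 FPKM in wild type. TCF3 RNA was thus not lower in the libraries labelled E2A-/- by any of the 3 tests, with log2 differences of -0.15 (adjusted p = 0.618), 0.36 (adjusted p = 0.159) and 0.66 (adjusted p = 0.0234). The day 15 difference lost significance without replicate 1 of the E2A-/- libraries (0.34), without replicate 1 of wild type (0.46) and in a fit on the compared groups alone (adjusted p = 0.0774), and that of day 7 passed in such a fit or on scaling to nuclear genes (smallest adjusted p = 0.0164). The level of a transcript does not show whether its protein is made, so the genotype is given here as labelled.

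The libraries' FPKM summed to 577716 to 734958, and the steps between low values correspond to an estimated 6700000 to 11400000 fragments per library. Replicates correlated across genes at r of 0.973 to 0.990. Among 6 lists of cell type markers, the neural list (3 of 5 markers listed) summed to 96.7 to 101 FPKM in the E2A-/- libraries on day 3, against 4.86 to 5.49 FPKM in wild type. The cardiomyocyte list (6 of 6) summed to 1006 to 1156 FPKM in the E2A-/- libraries on day 7, against 6055 to 6056 FPKM in wild type. The endothelial list (4 of 5) summed to between 49.5 and 97.5 FPKM over the 12 libraries, and the fibroblast and stromal list (2 of 6) to between 26.6 and 468 FPKM. Most of the endothelial sum was KDR, at group means of 48.0 to 71.4 FPKM. CDH5 averaged 2.38 FPKM in E2A-/- and 10.5 FPKM in wild type on day 7, and 6.67 and 2.22 FPKM on day 15. The endothelial list had 0 higher and 3 lower on day 7 (all genes: 22.1% and 19.9%). On day 15 it had 2 higher and 1 lower (18.9% and 16.2%). No listed marker was at 0 in any library, but neither was any other of the 17096 genes listed. A value above 0 therefore does not show that a marker is expressed. In bulk RNA, fewer cells of a type and less RNA per cell cannot be told apart.

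**Figure D1:**
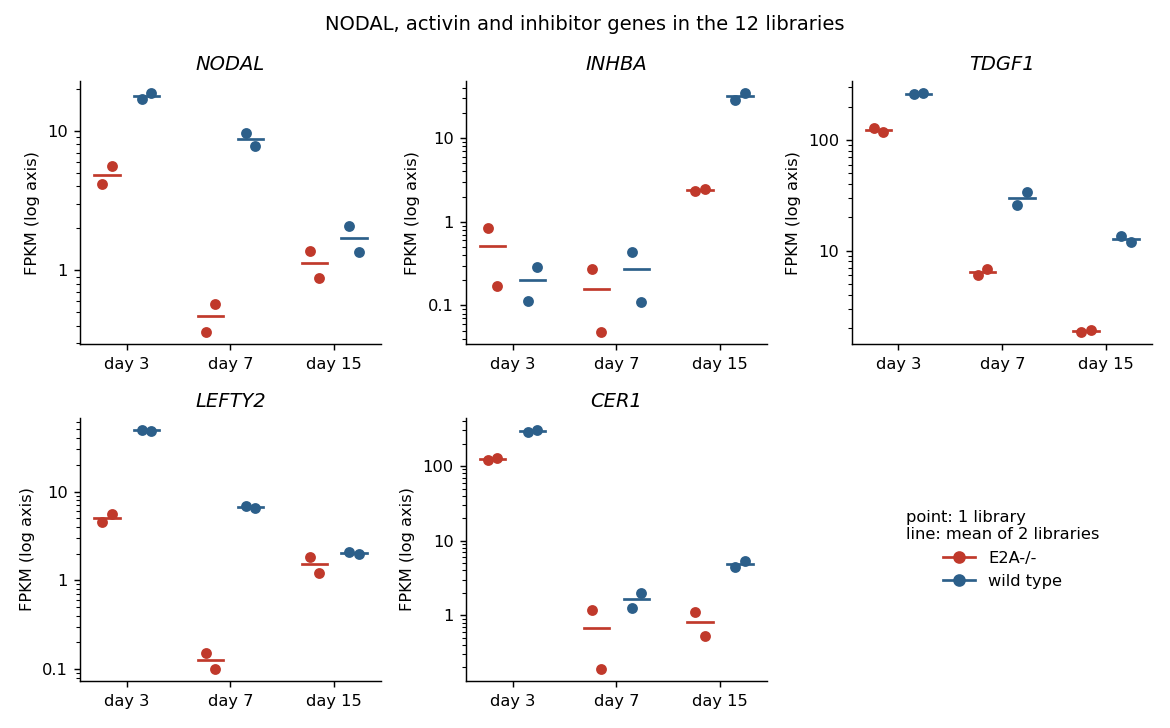
Each point is 1 library, in FPKM on a log axis, for NODAL, INHBA, TDGF1, LEFTY2 and CER1 on days 3, 7 and 15, with the libraries labelled E2A-/- in red on the left of each pair and wild type in blue on the right, and a line at each group's mean. On day 3, NODAL, TDGF1, LEFTY2 and CER1 lie lower in the E2A-/- libraries than in wild type (LEFTY2 at 4.52 and 5.55 FPKM, against 49.7 and 48.1 FPKM), and INHBA stands apart on day 15 only.

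NODAL (chromosome 10, 70432315 to 70447951, minus strand, GRCh38) encodes the ligand that gives the pathway its name. On day 3 it had 4.16 and 5.56 FPKM in the E2A-/- libraries, against 17.0 and 18.7 FPKM in wild type. On day 7 it had 0.360 and 0.575 FPKM in the E2A-/- libraries, against 9.72 and 7.83 FPKM in wild type. Both E2A-/- libraries were below both wild-type libraries on these days. The log2 difference, on the log2(FPKM + 1) scale used for all differences here, was -1.69 on day 3 (SE 0.22, limma adjusted p = 0.000449) and -2.73 on day 7 (SE 0.22, adjusted p = 1.13e-05). The E2A-/- values of day 7 rest on an estimated 5.67 and 9.15 fragments, so their ratio to wild type is loosely known. With a pseudocount of 0.1 the day 7 difference was -3.985. The day 15 values were 1.39 and 0.880 FPKM in the E2A-/- libraries, against 2.08 and 1.36 FPKM in wild type. These groups overlapped, and the difference of -0.35 did not pass (95% interval -0.83 to 0.13, adjusted p = 0.232).

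INHBA (chromosome 7, 41667168 to 41705834, minus strand) encodes the beta A subunit, 2 copies of which form activin A. On day 3 it had 0.844 and 0.171 FPKM in the E2A-/- libraries, against 0.114 and 0.290 FPKM in wild type. On day 7 it had 0.271 and 0.0478 FPKM in the E2A-/- libraries, against 0.437 and 0.110 FPKM in wild type. The genotypes overlapped on both days, with differences of 0.29 (95% interval -0.24 to 0.83, adjusted p = 0.425) and -0.13 (95% interval -0.67 to 0.41, adjusted p = 0.695). On day 15 INHBA had 2.31 and 2.49 FPKM in the E2A-/- libraries, against 28.7 and 34.7 FPKM in wild type. Here it fell by 3.26 on the log2 scale (SE 0.24, adjusted p = 1.05e-05), and the E2A-/- mean was 0.0757 of the wild-type mean. Of the 6 cardiomyocyte markers, 1 was higher on day 15 (18.9% of all genes tested) and 3 lower (16.2%). In the same libraries these markers summed to 2941 to 3640 FPKM in E2A-/-, against 8502 to 9379 FPKM in wild type. Most of that gap was MYL7, an atrial myosin light chain (1277 FPKM in E2A-/- and 6272 FPKM in wild type), while MYH6, a myosin heavy chain, averaged 873 FPKM in E2A-/- and 667 FPKM in wild type. The part of these markers in the INHBA result was not tested.

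TDGF1 (chromosome 3, 46574534 to 46582463, plus strand), also named CRIPTO, encodes the co-receptor that lets NODAL bind its receptors and is a known marker of undifferentiated stem cells. On day 3 it had 129 and 118 FPKM in the E2A-/- libraries, against 260 and 266 FPKM in wild type. On day 7 it had 6.05 and 6.84 FPKM in the E2A-/- libraries, against 26.1 and 34.2 FPKM in wild type. On day 15 it had 1.84 and 1.94 FPKM in the E2A-/- libraries, against 13.5 and 11.96 FPKM in wild type. The genotypes did not overlap on any day. TDGF1 fell on all 3 days, with log2 differences of -1.08 on day 3 (SE 0.14, adjusted p = 0.000577), -2.06 on day 7 (SE 0.14, adjusted p = 5.39e-06) and -2.25 on day 15 (SE 0.14, adjusted p = 4.42e-06). The pluripotency markers (4 of 6 listed) had 2 higher on day 3, 3 on day 7 and 2 on day 15, with 0 lower on each day. Of all genes tested, 9.51%, 22.1% and 18.9% were higher on these days. The 4 markers summed to 2327 to 2419 FPKM in the E2A-/- libraries on day 3, against 2110 to 2134 FPKM in wild type. LIN28A, an RNA-binding protein of stem cells, averaged 1147 FPKM in E2A-/- and 811 FPKM in wild type, and POU5F1, a core pluripotency factor, 851 FPKM in E2A-/- and 1037 FPKM in wild type. On day 7 the 4 summed to 1055 to 1159 FPKM in the E2A-/- libraries, against 772 to 802 FPKM in wild type. DNMT3B then averaged 83.1 FPKM in E2A-/- and 31.7 FPKM in wild type, and DPPA4 77.9 and 35.5 FPKM. On day 15 the 4 summed to 387 to 443 FPKM in the E2A-/- libraries, against 108 to 128 FPKM in wild type, a gap that lay mostly in LIN28A (349 FPKM in E2A-/- and 62.5 FPKM in wild type). POU5F1 then averaged 33.3 FPKM in E2A-/- and 30.0 FPKM in wild type, and the part of these markers in the TDGF1 result was not tested.

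LEFTY2 (chromosome 1, 225936598 to 225941489, minus strand) encodes a secreted inhibitor that keeps NODAL from its receptors. On day 3 it had 4.52 and 5.55 FPKM in the E2A-/- libraries, against 49.7 and 48.1 FPKM in wild type. The E2A-/- mean was 0.103 of the wild-type mean. Its log2 difference of -3.05 (SE 0.18, adjusted p = 4.68e-06) was the lowest among the 5 genes on that day. On day 7 LEFTY2 had 0.152 and 0.101 FPKM in the E2A-/- libraries, against 6.80 and 6.58 FPKM in wild type, a difference of -2.77 (SE 0.18, adjusted p = 2.97e-06). The E2A-/- values of day 7 rest on an estimated 3.38 and 2.27 fragments, so their ratio to wild type is loosely known, and with a pseudocount of 0.1 the difference was -4.92. On day 15 the values were 1.86 and 1.20 FPKM in the E2A-/- libraries, against 2.09 and 1.99 FPKM in wild type. Both E2A-/- libraries were lower there, yet the difference of -0.28 did not pass (95% interval -0.67 to 0.11, adjusted p = 0.245).

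CER1 (chromosome 9, 14719724 to 14722717, minus strand) encodes Cerberus, a secreted protein known to bind NODAL and BMPs and expressed in anterior endoderm. On day 3 it had 122 and 128 FPKM in the E2A-/- libraries, against 288 and 307 FPKM in wild type. It fell by 1.25 on the log2 scale (SE 0.27, adjusted p = 0.00800). That call was lost without replicate 1 of the E2A-/- libraries (-1.21, adjusted p = 0.0517), without replicate 2 of wild type (-1.20, adjusted p = 0.0538) and with a pseudocount of 0.1 (-1.25, adjusted p = 0.127). On day 7 CER1 had 1.18 and 0.191 FPKM in the E2A-/- libraries, against 1.26 and 2.002 FPKM in wild type. Its difference of -0.69 did not pass (95% interval -1.29 to -0.10, adjusted p = 0.0602), though it did with median-ratio rescaling (-0.73, adjusted p = 0.0413) and without replicate 1 of the E2A-/- libraries (-1.13, adjusted p = 0.00747). Without replicate 2 of the E2A-/- libraries it was -0.26 (adjusted p = 0.440). On day 15 CER1 had 1.10 and 0.521 FPKM in the E2A-/- libraries, against 4.41 and 5.28 FPKM in wild type. It fell by 1.71 (SE 0.27, adjusted p = 0.000881). The E2A-/- values of day 15 rest on an estimated 14.2 and 4.24 fragments, and with a pseudocount of 0.1 the difference was -2.51. Of the endoderm markers (4 of 6 listed), 3 were lower on day 3 and 2 on day 15, where 14.1% and 16.2% of all genes were lower. The day 15 call of SOX17 (-0.59, adjusted p = 0.0274) was lost in 4 of the alternatives. Together the 4 markers summed to 33.3 to 36.8 FPKM in the E2A-/- libraries on day 3, against 135 to 137 FPKM in wild type. On day 15 they summed to 34.5 to 36.9 FPKM in the E2A-/- libraries, against 134 to 154 FPKM in wild type. That gap lay mostly in APOA1, an apolipoprotein, with means of 22.2 FPKM in E2A-/- and 128 FPKM in wild type, while FOXA1 averaged 5.02 FPKM in E2A-/- and 4.003 FPKM in wild type. The part of these markers in the CER1 result was not tested.

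**Figure D2:**
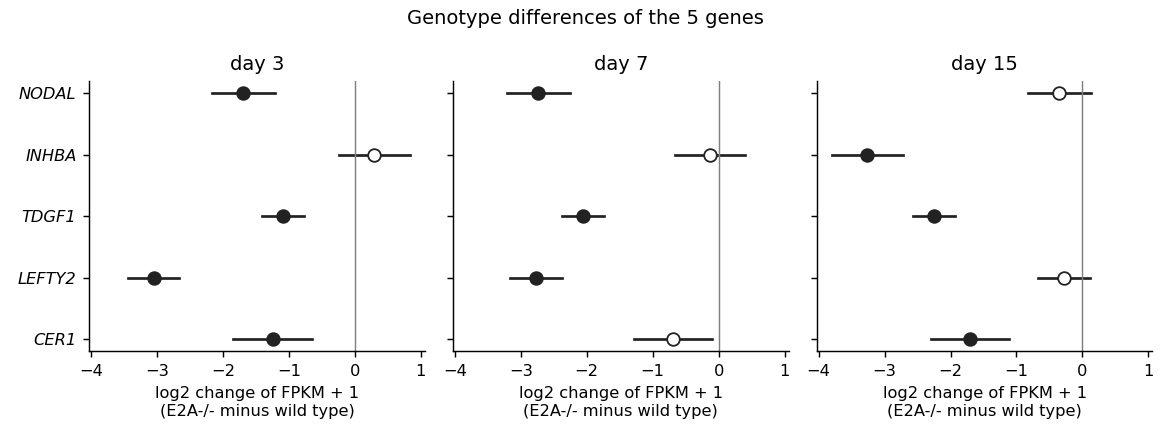
Log2 differences, E2A-/- minus wild type, of NODAL, INHBA, TDGF1, LEFTY2 and CER1 on each day, on the log2(FPKM + 1) scale, with bars for the 95% interval from limma and filled points where the adjusted p over 16295 genes is under 0.05. TDGF1 lies below 0 on all 3 days, NODAL and LEFTY2 near 0 only on day 15 (-0.35 and -0.28), and INHBA far below 0 only on day 15 (-3.26); the bars are not adjusted, so that of CER1 on day 7 misses 0 although its adjusted p is 0.0602.

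Counted by day, 4 of the 5 genes fell on day 3, where 14.1% of all genes tested were lower in the E2A-/- libraries. On day 7, 3 of the 5 fell against a background of 19.9%, and on day 15, 3 of the 5 against 16.2%. None of the 5 rose on any day, where 9.51%, 22.1% and 18.9% of all genes were higher on days 3, 7 and 15. The 3 called on day 15 were not the 3 of day 7: NODAL, LEFTY2 and TDGF1 were called on day 7, and INHBA, CER1 and TDGF1 on day 15. For CER1 this is no shown change, since it was also lower on day 7 without passing (-0.69, adjusted p = 0.0602). The change of its difference between these days did not pass either (-1.01, adjusted p = 0.0657). On day 7 the share of FPKM from the mitochondrial genome was 20.2% and 18.5% in the E2A-/- libraries, against 8.55% and 8.14% in wild type. On day 15 it was 13.9% and 14.3% in the E2A-/- libraries, against 26.1% and 26.2% in wild type. With each library scaled to its nuclear genes, the day 7 differences of NODAL, LEFTY2 and TDGF1 were -2.61, -2.67 and -1.87, and all passed, as did those of INHBA, TDGF1 and CER1 on day 15 (-3.28, -2.27 and -1.74).

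Some of the reads behind these values could be shared with other genes. Of all 50-base windows of 1 LEFTY2 transcript, 26.1% also occur in transcripts of other genes, chiefly LEFTY1, and of TDGF1 41.2%, chiefly the pseudogene TDGF1P3. Levels of these genes are therefore uncertain to the extent that such reads were split. NODAL, CER1 and INHBA had no such window. Exons of NODAL share 698 bases with AC022532.1 on the opposite strand and those of TDGF1 share 110 bases with LRRC2, also on the opposite strand, and the sources used here do not give the strand setting. On the same strand, exons of LEFTY2 share 175 bases with AL117348.1 and those of TDGF1 share 45 bases with AC104304.1, which no strand setting would separate.

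The promoters of 4 of the 6 symbols were matched in RefSeq (GRCh38.p14), while LEFTY2 and LEFTY1 had no match there. All matched promoters are shown, since E2A binds E-boxes, and a link between these letters and the RNA levels was not tested. Each is the 250 bases before a start site, 5′ to 3′ on the gene's strand. Capitals mark the E-box letters CANNTG, found on both strands, since the pattern reads the same on each.

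NODAL, chr10:70441682-70441931, minus strand: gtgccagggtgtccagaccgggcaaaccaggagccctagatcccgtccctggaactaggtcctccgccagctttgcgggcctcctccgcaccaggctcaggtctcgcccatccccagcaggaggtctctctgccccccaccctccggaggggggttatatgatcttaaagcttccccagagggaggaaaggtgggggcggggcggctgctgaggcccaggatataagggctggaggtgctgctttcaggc
TDGF1 first start, chr3:46574285-46574534, plus strand: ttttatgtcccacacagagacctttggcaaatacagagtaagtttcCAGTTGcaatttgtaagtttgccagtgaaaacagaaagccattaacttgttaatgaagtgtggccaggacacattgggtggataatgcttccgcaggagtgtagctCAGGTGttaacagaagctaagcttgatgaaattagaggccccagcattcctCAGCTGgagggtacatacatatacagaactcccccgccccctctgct
TDGF1 second start, chr3:46577538-46577787, plus strand: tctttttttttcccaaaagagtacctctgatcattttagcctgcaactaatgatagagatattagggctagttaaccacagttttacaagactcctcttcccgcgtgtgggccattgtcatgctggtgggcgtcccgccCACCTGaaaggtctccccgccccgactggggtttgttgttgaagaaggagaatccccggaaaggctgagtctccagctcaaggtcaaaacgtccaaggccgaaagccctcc
CER1, chr9:14722734-14722983, minus strand: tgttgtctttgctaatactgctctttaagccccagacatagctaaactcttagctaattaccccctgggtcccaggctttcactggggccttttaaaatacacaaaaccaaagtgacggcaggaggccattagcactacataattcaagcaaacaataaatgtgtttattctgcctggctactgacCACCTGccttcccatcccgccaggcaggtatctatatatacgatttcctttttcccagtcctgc
INHBA, chr7:41703091-41703340, minus strand: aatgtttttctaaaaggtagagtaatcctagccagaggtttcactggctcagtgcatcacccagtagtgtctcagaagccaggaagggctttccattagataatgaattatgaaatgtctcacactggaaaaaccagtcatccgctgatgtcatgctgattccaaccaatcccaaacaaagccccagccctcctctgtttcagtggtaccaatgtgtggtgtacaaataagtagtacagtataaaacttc

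The first TDGF1 promoter held 3 E-boxes, which began 204, 98 and 47 bases before the start, and the second held 1 at 111 bases. CER1 held 1 at 64 bases, and neither NODAL nor INHBA held any in its window. The windows of NODAL and INHBA lie inside the gene spans given above, so starts annotated further upstream were not searched. Over 35116 RefSeq promoters of the same length, 61.8% held CANNTG. The FOXH1 letters TGTNNATT, searched on both strands and present in 9.88% of all promoters, occurred in CER1 at 154 and 88 bases before the start and in no other promoter printed. The SMAD letters CAGAC, also searched on both strands and present in 38.0% of promoters, occurred once each in NODAL and CER1. None of these matches overlapped a match of another of the 3 motifs. The matches describe the letters of these windows and do not show binding.

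Across the 6 groups the genes had different orders of level. From low to high, NODAL was lowest in E2A-/- on day 7 (0.468 ± 0.152 FPKM, SD, n = 2 here and below), followed by E2A-/- on day 15 (1.13 ± 0.358), wild type on day 15 (1.72 ± 0.508), E2A-/- on day 3 (4.86 ± 0.989), wild type on day 7 (8.78 ± 1.34) and wild type on day 3 (17.8 ± 1.24). Among neighbours in this order, only the 2 day 15 groups overlapped. LEFTY2 ran in the same order, with 0.126 ± 0.0363 FPKM in E2A-/- on day 7 at the bottom and 48.9 ± 1.11 FPKM in wild type on day 3 at the top, and no neighbouring groups overlapped. TDGF1 was highest in the day 3 groups, with 124 ± 7.84 FPKM in E2A-/- and 263 ± 4.05 FPKM in wild type, and lowest in E2A-/- on day 15 with 1.89 ± 0.0707 FPKM. Its neighbouring groups did not overlap either. CER1 was also highest on day 3, at 125 ± 3.94 FPKM in E2A-/- and 297 ± 13.7 FPKM in wild type. Its other 4 groups lay between 0.683 and 4.85 FPKM on average, with overlap between E2A-/- on days 7 and 15. INHBA was highest on day 15, at 2.40 ± 0.121 FPKM in E2A-/- and 31.7 ± 4.25 FPKM in wild type, and its other 4 groups, at 0.159 to 0.507 FPKM on average, overlapped their neighbours.

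Within the E2A-/- libraries, 4 of the 5 genes were lower on day 7 than on day 3, where 11.4% of all genes were, and none was higher (background 17.3%). NODAL fell by 1.99, LEFTY2 by 2.42, TDGF1 by 4.07 and CER1 by 6.29 on the log2 scale, with adjusted p of 7.92e-05, 4.59e-06, 3.17e-08 and 1.06e-07. A pseudocount of 0.1 gave -3.14 for NODAL and -4.51 for LEFTY2. Wild-type libraries showed the same 4 genes lower on day 7, against a background of 22.6%, and none higher (background 21.1%). There NODAL fell by 0.95, LEFTY2 by 2.70, TDGF1 by 3.10 and CER1 by 6.84, with adjusted p of 0.00471, 8.90e-07, 6.99e-08 and 2.17e-08. Wild-type CER1 thus averaged 1.63 ± 0.526 FPKM on day 7, against 297 ± 13.7 FPKM on day 3 (SD, n = 2 each).

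Between days 7 and 15 the E2A-/- libraries had 2 of the 5 genes higher (background 13.3%) and 1 lower (background 15.1%). INHBA rose by 1.56 (adjusted p = 0.00107), LEFTY2 rose by 1.15 (adjusted p = 0.000938), and TDGF1 fell by 1.37 (adjusted p = 9.79e-05). With a pseudocount of 0.1 the rises were 3.42 for INHBA and 2.83 for LEFTY2. NODAL differed by 0.53 (adjusted p = 0.0899), which passed with a pseudocount of 0.1 (1.11, adjusted p = 0.0272), and CER1 by 0.15 (adjusted p = 0.708). In wild type, 2 genes were higher on day 15 (background 25.5%) and 3 lower (background 26.8%). INHBA rose by 4.69 (adjusted p = 5.83e-07) and CER1 by 1.16 (adjusted p = 0.00447), while NODAL fell by 1.85, LEFTY2 by 1.34 and TDGF1 by 1.17 (adjusted p = 6.23e-05, 0.000138 and 8.82e-05). LEFTY2 therefore moved up in the E2A-/- libraries and down in wild type over the same interval.

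The change of the genotype difference between days was tested directly. From day 3 to day 7 the difference became more negative for TDGF1, by 0.97 on the log2 scale (SE 0.20, adjusted p = 0.00837), and for NODAL, by 1.04 (SE 0.30, adjusted p = 0.0360). These are 2 of the 5 genes, where 8.90% of all genes tested were lower, and none was higher (background 11.3%). The NODAL call was lost on leaving out any 1 of 7 of the 8 libraries, with adjusted p of up to 0.126, and among these it held only without replicate 1 of E2A-/- on day 3. With a pseudocount of 0.1 the NODAL change was -2.12 (adjusted p = 0.0103). The LEFTY2 change of 0.28 did not pass (adjusted p = 0.465) and depends on the pseudocount: with 0.1 it was -1.66 (adjusted p = 0.0116). From day 7 to day 15 the difference became less negative for LEFTY2, by 2.49 (SE 0.25, adjusted p = 1.00e-04), and for NODAL, by 2.38 (SE 0.30, adjusted p = 0.000388), where 16.6% of all genes were higher. With a pseudocount of 0.1 the LEFTY2 change was 4.49. It became more negative for INHBA, by 3.13 (SE 0.34, adjusted p = 0.000162), where 15.2% of all genes were lower. TDGF1 (-0.19, 95% interval -0.64 to 0.26, adjusted p = 0.500) and CER1 (-1.01, adjusted p = 0.0657) did not pass. The CER1 change passed without replicate 2 of E2A-/- on day 7 (-1.45, adjusted p = 0.0101), without replicate 1 of E2A-/- on day 15 (-1.24, adjusted p = 0.0448) and on scaling to nuclear genes (-1.14, adjusted p = 0.0399), and it was -0.58 without replicate 1 of E2A-/- on day 7.

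The rest of the pathway was read from 43 further genes in 6 lists, of which 37 were listed and tested. On day 3, 3 were higher (background 9.51%) and 14 lower in the E2A-/- libraries, with a median log2 difference of -0.17, against -0.01 over all genes. On day 7, 5 were higher (background 22.1%) and 18 lower, with a median of -0.70, against 0.06 over all genes. On day 15, 10 were higher (background 18.9%) and 9 lower, with a median of -0.05, against 0.03 over all genes. The shares of all genes that were lower are 14.1%, 19.9% and 16.2% on the 3 days, and the counts of single lists given next stand beside the same shares. The 19 calls of day 15 became 11 in a fit on the compared groups alone and 11 to 17 on leaving out 1 library.

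**Figure D3:**
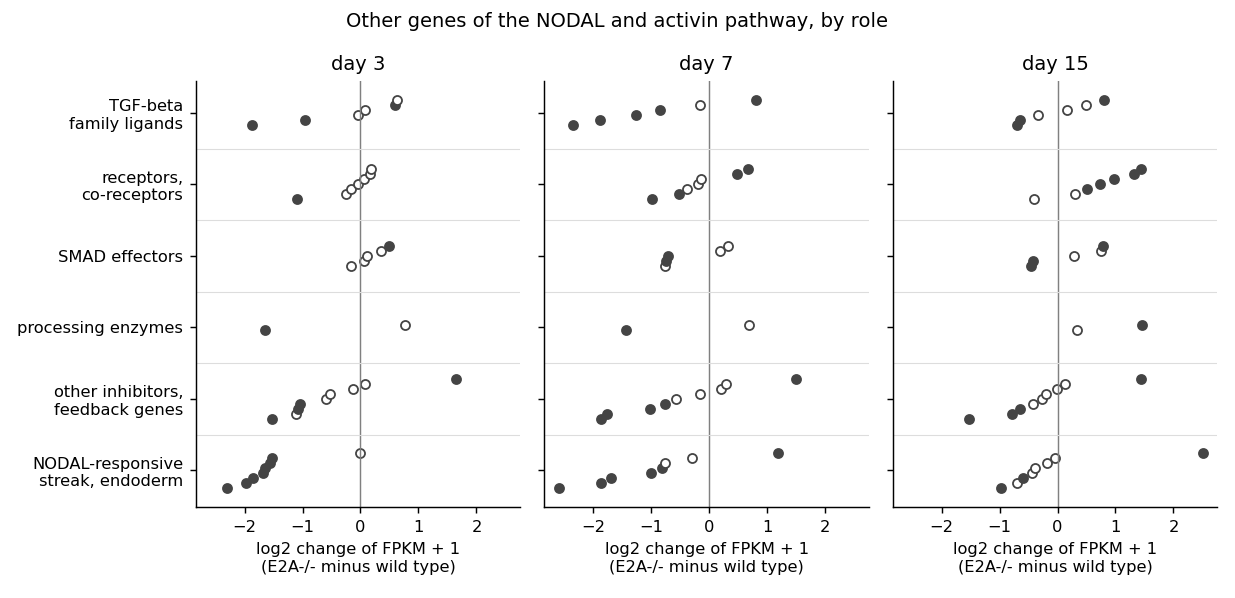
Log2 differences, E2A-/- minus wild type, of the 37 other pathway genes tested, grouped by list and shown for days 3, 7 and 15, with filled points where the adjusted p is under 0.05. Most filled points lie below 0 on days 3 and 7 (14 of 17 and 18 of 23), and on day 15 they lie on both sides, with 10 above and 9 below.

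Genes known to respond to NODAL in streak and endoderm had 0 of 8 higher and 7 of 8 lower on day 3, with a median of -1.66, where 9.51% of all genes were higher and 14.1% lower. Of the 7, the call of LHX1 (-1.64, adjusted p = 0.0137) was lost without any 1 of the 4 libraries and with a pseudocount of 0.1, with adjusted p of up to 0.146. EOMES, a T-box factor of the streak, had 52.3 and 48.9 FPKM in the E2A-/- libraries, against 188 and 182 FPKM in wild type (-1.85, SE 0.18, adjusted p = 0.000108). FOXA2, an endoderm factor, had 9.10 and 8.32 FPKM in the E2A-/- libraries, against 47.0 and 46.3 FPKM in wild type (-2.30, SE 0.14, adjusted p = 7.08e-06). GATA6 and SOX17, both factors of early endoderm, fell by 1.53 and 1.68 (adjusted p = 0.000110 and 0.000174). FOXA2 and SOX17 are also on the endoderm marker list, so the sum of that list is not a separate observation.

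On day 7 this list had 1 gene higher and 5 lower. FOXA2 then had 21.5 and 20.8 FPKM in the E2A-/- libraries, against 68.8 and 72.8 FPKM in wild type, and fell by 1.70 (SE 0.14, adjusted p = 1.57e-05). GSC, a homeobox factor of the organizer, was the higher gene, with 2.05 and 1.73 FPKM in the E2A-/- libraries, against 0.150 and 0.381 FPKM in wild type (1.19, SE 0.17, adjusted p = 0.000435). Within the E2A-/- libraries GSC averaged 7.76 FPKM on day 3 and 1.89 FPKM on day 7. On day 3 GSC had fallen by 1.56 (adjusted p = 0.000210), and its genotype difference changed by 2.76 between these days (SE 0.25, adjusted p = 8.11e-05). On day 15 the list had 1 gene higher, again GSC, and 2 lower, MIXL1 and SOX17, which were lost in 1 and 4 of the alternatives. GSC then had 5.96 and 5.22 FPKM in the E2A-/- libraries, against 0.103 and 0.219 FPKM in wild type (2.50, SE 0.17, adjusted p = 6.87e-06). The sizes of these GSC differences are loosely known, since wild-type values were low on days 7 and 15. With a pseudocount of 0.1 they were 2.52 on day 7 and 4.48 on day 15, and the change from day 3 to day 7 was 4.19.

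The list of other inhibitors and feedback genes had 1 of 9 higher and 3 lower on day 3, 1 higher and 4 lower on day 7, and 1 higher and 3 lower on day 15. A single rise lies near or below the shares of all genes that were higher (9.51%, 22.1% and 18.9%). DACT2 on day 3 and PMEPA1 on day 7 were lost in 4 of the alternatives each, and SKI and FSTL3 on day 15 in 3 each. FST encodes follistatin, which binds and neutralises activin. On day 3 it had 109 and 121 FPKM in the E2A-/- libraries, against 34.1 and 38.1 FPKM in wild type, and rose by 1.64 (SE 0.14, adjusted p = 3.96e-05). It rose by 1.49 on day 7 (adjusted p = 2.69e-05). On day 15 FST had 25.5 and 31.4 FPKM in the E2A-/- libraries, against 79.8 and 86.9 FPKM in wild type, and fell by 1.53 (SE 0.14, adjusted p = 3.44e-05). Its genotype difference changed by -3.02 from day 7 to day 15 (SE 0.20, adjusted p = 6.97e-06), in the same direction as that of INHBA.

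SMAD7, an intracellular inhibitor that the pathway induces, had 8.07 and 7.70 FPKM in the E2A-/- libraries on day 3, against 27.8 and 21.7 FPKM in wild type (-1.52, SE 0.13, adjusted p = 5.09e-05). On day 7 it fell by 1.77 (adjusted p = 8.89e-06), and on day 15 it differed by -0.01 (adjusted p = 0.955). BAMBI, a pseudoreceptor that dampens TGF-beta family signals, had 158 and 153 FPKM in the E2A-/- libraries on day 7, against 567 and 570 FPKM in wild type (-1.86, SE 0.10, adjusted p = 1.15e-06). It also fell on day 3 (-1.08, adjusted p = 8.02e-05) and on day 15 (-0.64, adjusted p = 0.000881).

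**Figure D4:**
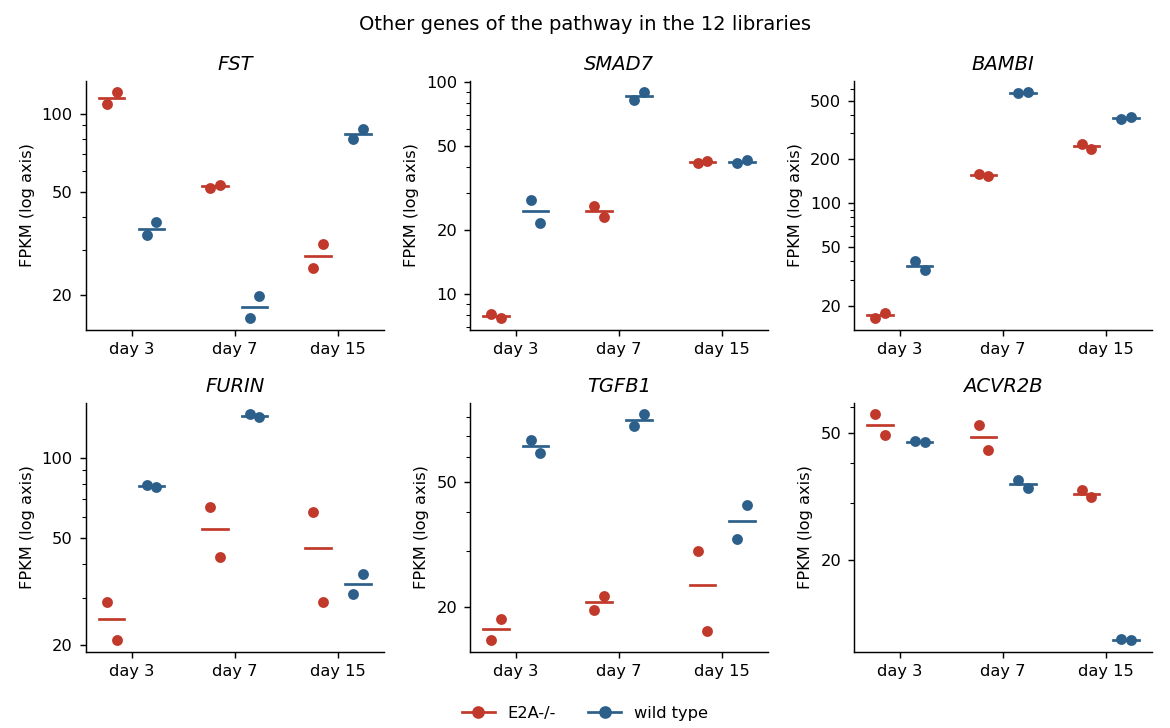
FPKM on a log axis in each of the 12 libraries for FST, SMAD7, BAMBI, FURIN, TGFB1 and ACVR2B, with the libraries labelled E2A-/- in red on the left of each pair, wild type in blue on the right, and a line at each group's mean. FST lies higher in the E2A-/- libraries on days 3 and 7 and lower on day 15 (25.5 and 31.4 FPKM, against 79.8 and 86.9 FPKM in wild type), and SMAD7 is lower on days 3 and 7 only.

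Among the other ligands of the family, 1 of 6 was higher and 2 lower on day 3, 1 higher and 4 lower on day 7, and 1 higher and 2 lower on day 15. The 2 lower genes of days 3 and 15 lie above the shares of all genes that were lower (14.1% and 16.2%). The single rises of these days stand beside 9.51% and 18.9% of all genes higher. A list of 6 genes is too short to tell such counts from these shares. GDF11 on day 3 and INHBE on day 15 were lost in 3 and 4 of the alternatives. TGFB1 had 15.6 and 18.3 FPKM in the E2A-/- libraries on day 3, against 67.7 and 61.9 FPKM in wild type (-1.87, SE 0.22, adjusted p = 0.000317). It fell by the same 1.87 on day 7 (adjusted p = 0.000129), and its day 15 call (-0.70, adjusted p = 0.0328) was lost without replicate 2 of either genotype, with adjusted p of up to 0.197. TGFB2 had 48.3 and 49.6 FPKM in the E2A-/- libraries on day 7, against 272 and 235 FPKM in wild type (-2.35, SE 0.34, adjusted p = 0.000429). INHA, the inhibin alpha subunit, fell by 1.27 on day 7 (adjusted p = 0.000596).

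FURIN, a protease that cleaves the precursors of NODAL and TGF-beta, had 28.96 and 20.7 FPKM in the E2A-/- libraries on day 3, against 79.5 and 78.1 FPKM in wild type (-1.65, SE 0.31, adjusted p = 0.00411). It fell by 1.43 on day 7 (adjusted p = 0.00426) and differed by 0.33 on day 15 (adjusted p = 0.433). PCSK6, a related protease, rose by 1.46 on day 15 (adjusted p = 0.00445).

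Receptors and co-receptors had 0 of 7 higher and 1 lower on day 3, 2 higher and 2 lower on day 7, and 5 higher and 0 lower on day 15. The counts of days 3 and 7 lie near the shares of all genes, which on day 7 were 22.1% higher and 19.9% lower, and on day 15 18.9% of all genes were higher. Of these calls, TGFBR3 on day 7 and TGFBR2 on day 15 were lost in 5 and 6 of the alternatives. On day 15 the type II receptor gene ACVR2B had 33.1 and 31.3 FPKM in the E2A-/- libraries, against 11.3 and 11.2 FPKM in wild type (1.44, SE 0.12, adjusted p = 2.55e-05). The type I receptor genes ACVR1B and TGFBR1 rose by 0.97 and 1.32 (adjusted p = 0.000630 and 6.72e-05). TGFBR3, a co-receptor of TGF-beta, rose by 0.73 (adjusted p = 0.00767, or 0.0540 in a fit on the compared groups alone). CFC1, the other co-receptor of the CRIPTO family, fell by 0.99 on day 7 (adjusted p = 0.00615) and is uncertain because a near-identical copy, CFC1B, exists.

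The SMAD effectors had 1 of 5 higher and 0 lower on day 3, 0 higher and 2 lower on day 7, and 1 higher and 2 lower on day 15. The 2 lower genes of days 7 and 15 lie above the shares of all genes that were lower (19.9% and 16.2%). A list of 5 genes is too short to tell such counts from these shares. The 3 calls of day 15 (SMAD4, SMAD2 and TRIM33) were lost in 2, 4 and 4 of the alternatives. FOXH1, the DNA-binding partner of SMAD2, had 25.6 and 25.0 FPKM in the E2A-/- libraries on day 7, against 39.9 and 43.8 FPKM in wild type (-0.70, SE 0.13, adjusted p = 0.00170). SMAD2 fell by 0.74 on that day (adjusted p = 0.00218). The single rise of day 3, TRIM33, a regulator of SMAD signalling (0.49, adjusted p = 0.0214), was lost without any 1 of the 4 libraries, with adjusted p of up to 0.148.

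**Figure D5:**
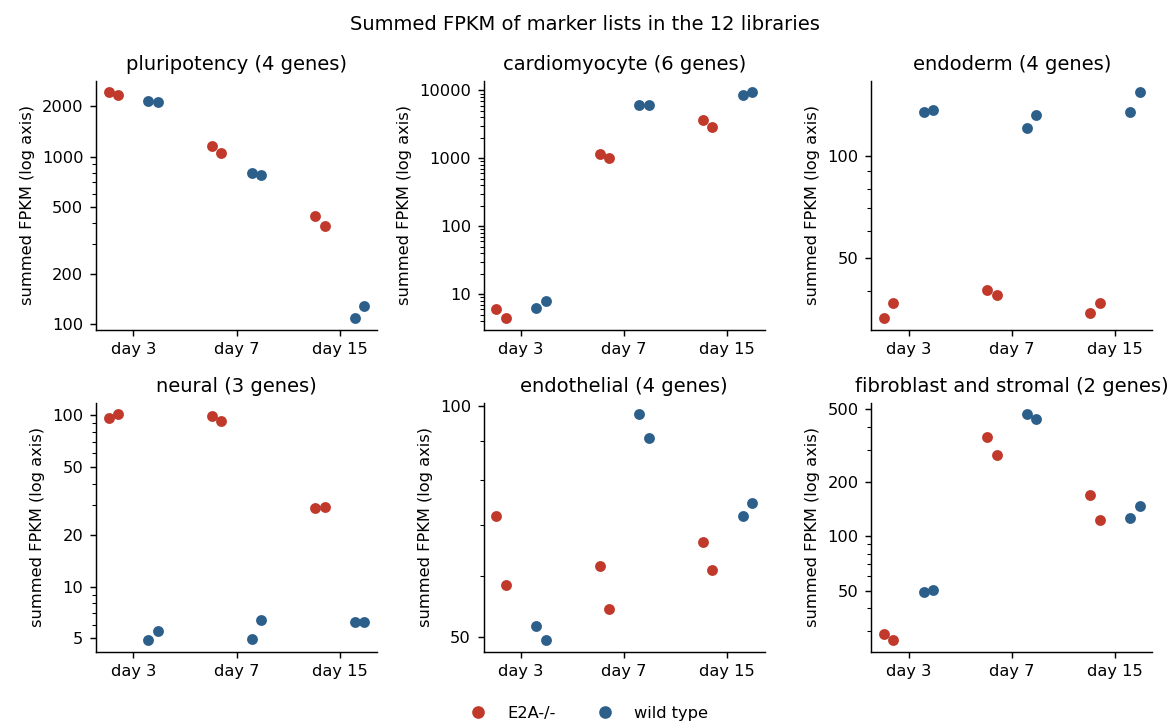
Summed FPKM of each list of cell type markers in each of the 12 libraries on a log axis, with the libraries labelled E2A-/- in red on the left of each pair and wild type in blue on the right. The neural sum is higher in the E2A-/- libraries on all 3 days (28.7 to 29.1 FPKM on day 15, against 6.26 to 6.27 FPKM in wild type), and the endoderm sum is lower on all 3 days, on day 15 mostly through APOA1 (22.2 FPKM on average, against 128 FPKM in wild type).

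Likeness of profile was measured as the root-mean-square difference of centred log2(FPKM + 1) values over the 12 libraries, among 12984 genes that did not include the 5 themselves. Near to NODAL lay ANGPT2 (0.509) and P3H2 (0.524). Those nearest to LEFTY2 were LOX (0.585), GSTT2B (0.608) and PRSS1 (0.715), and among the 5 genes themselves NODAL and LEFTY2 were the closest pair (0.603). CER1 lay nearest to FGF17 (0.661), MIXL1 (0.685) and EOMES (0.742). TDGF1 lay nearest to LINC01356 (0.560), RP3-467D16.3 (0.610) and PRSS2 (0.695). INHBA lay nearest to MYH7B (0.498), AC159540.1 (0.550) and RP11-171I2.1 (0.645), and CER1 and INHBA were the pair farthest apart (3.81).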

How the data were processed

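Illumina libraries of Trizol-extracted RNA were read, per the labels' protocols. The authors deposited 1 value per gene and library, taken as FPKM from the values, since the labels name no unit. BWA and hg38 (GRCh38) were used, per the submitters' processing notes. The quantifying program, its annotation and the strand setting were not given in the sources used here. Depth was estimated from the steps between low values, using 17 to 46 genes per library. Of these values 41.2% to 78.3% came within 0.1 of a whole fragment, so no count model was used. The depth was chosen by how near the same values came to whole fragments, so these shares are no separate check of it.

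Tests used limma 3.58.1 (R 4.3.3, trend option) on log2(FPKM + 1), with 1 model of 6 group means over 12 libraries and 6 residual degrees of freedom. It gave 9 contrasts, with two-sided p-values adjusted by Benjamini and Hochberg over 16295 genes and a threshold of 0.05. The filter left out 801 genes. The code was tested on simulated data. Alternatives were median-ratio rescaling, scaling to nuclear genes, a pseudocount of 0.1, a filter at 5 FPKM or none, limma without its trend, the replicate number as a block, the compared groups alone, and each library left out. Gene positions are from GENCODE on GRCh38.

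The 6 symbols, the pathway and marker lists and the tests were chosen with earlier results of these data known. The text names the chosen genes, up to 4 called genes per list and day with the smallest adjusted p, and the 3 genes nearest in profile to each chosen gene with at least 5 FPKM. The alternatives for the other pathway genes were chosen after seeing the data. Some results that this rule names are not reported here.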

Additional observations from a re-analysis of the deposited data

Results flagged for a closer look

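The genotype difference, E2A-/- minus wild type, changed between days by a test of the change itself for 4 of the 5 genes. From day 3 to day 7 the change was -1.04 on the log2 scale for NODAL (adjusted p = 0.0360) and -0.97 for TDGF1 (adjusted p = 0.00837). Of all genes tested, 8.90% were lower and 11.3% higher by that test. From day 7 to day 15 it was -3.13 for INHBA (adjusted p = 0.000162), 2.49 for LEFTY2 (adjusted p = 1.00e-04) and 2.38 for NODAL (adjusted p = 0.000388). Here 16.6% of all genes tested were higher and 15.2% lower. The E2A-/- values of day 7 rest on few fragments, an estimated 3.38 and 2.27 for LEFTY2. For NODAL they rest on 5.67 and 9.15. NODAL is the gene that appears in both intervals, with opposite signs, and its first change was lost without any 1 of 7 of the 8 libraries.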

How the results depend on the processing

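Over the 5 genes, 549 of the alternative values kept direction and call, 10 kept direction and lost the call, 6 gained it and 9 turned direction. With a pseudocount of 0.1, the change of the genotype difference from day 3 to day 7 turned to -1.66 for LEFTY2 and -0.22 for CER1, the cause of which was not tested. On scaling to nuclear genes the TCF3 difference on day 3 turned to 0.024. Leaving out 1 library turned values that had not passed: INHBA ran from -0.034 to 0.62 on day 3 and from -0.32 to 0.056 on day 7 between genotypes (0.0087 without replicate 2 of E2A-/-), and from -0.11 to 0.26 between days 3 and 7 in wild type (-0.030 without replicate 1 of day 3). CER1 ran from -0.28 to 0.59 between days 7 and 15 in E2A-/- (-0.082 without replicate 1 of day 15), and TCF3 from -0.024 to 0.62 in the change from day 7 to day 15. The count of the 5 genes called in the change from day 3 to day 7 was 1 to 2, and that of pathway genes called on day 15 was 11 in the compared groups alone and 11 to 17 without 1 library. INHBA was filtered out in the compared groups alone on days 3 and 7. Over all genes, calls between genotypes on day 3 numbered 3849, and 1990 to 2503 without 1 library. On day 7 they numbered 6852, and 4498 without replicate 2 of wild type. On day 15 they numbered 5723, and 3657 in the compared groups alone or 3803 without replicate 2 of wild type. Within E2A-/- they numbered 4668 from day 3 to day 7, and 2947 without replicate 1 of day 3, and 4628 from day 7 to day 15, and 2084 in the compared groups alone or 2902 without replicate 1 of day 7. For the change of the genotype difference from day 3 to day 7 they numbered 3285, and 1920 to 2066 without 1 wild-type library. Higher genes made up 40.3% of day 3 calls and 62.3% on scaling to nuclear genes, which moved the median of all genes to 0.12; on day 7 they made up 52.6% and 68.2%, with a median of 0.22. For wild type from day 7 to day 15 they made up 48.7% and 60.1%, and for the change of the genotype difference over that interval 52.2% and 37.7%. Replicate numbers were not taken to pair the samples (r of deviations -0.121 to 0.206 over 15 group pairs), since not every pair was over 0.1; the 3 pairs that were are those among the E2A-/- groups (0.155, 0.103 and 0.206). With the replicate number as a block 4, 3 and 3 of the 5 genes passed on days 3, 7 and 15, with no call changed. That block gives both genotypes the same replicate effect, so it cannot fit a pairing confined to the E2A-/- groups.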
